A study of Homo sapiens with 12 samples.

Results

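The 209 transcripts described here have gene names ending in -DT, for divergent transcript, the name given to an RNA that starts near a gene's promoter and runs away from that gene. They were chosen by level alone. A member had a mean of at least 1 CPM (counts scaled to a library total of 1000000) over the 12 libraries, which 209 of 585 such names met in a table of 60645 gene names, and 550 of the 585 had any count. The level is therefore given as a description. Differences between groups were not a criterion, but a member of low level can reach such a mean through the groups where it is high. Just inside the limit stood USP27X-DT at 1.05 CPM and KIF26A-DT at 1.03 CPM, and just outside it NUDT19-DT at 0.973 CPM and CSTF3-DT at 0.972 CPM.

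The data are polyA RNA-seq of HEK-293T, an established line from human embryonic kidney, made ARID1A-deficient by knockout. The protein belongs to SWI/SNF (BAF), an ATP-driven remodeller of chromatin, and IDR1b is a segment of its intrinsically disordered sequence. EWS-FLI1 is the fusion transcription factor of Ewing sarcoma, whose FLI1 part binds DNA. The stated question was what IDR1b does in transcriptional regulation by EWS-FLI1. All 6 groups, with 2 libraries each, share the ARID1A knockout. The first pair of groups received an empty vector in place of ARID1A (written no ARID1A), the next pair overexpressed full-length ARID1A (WT), and the last pair overexpressed ARID1A without IDR1b (ΔIDR1b). Within each pair of groups, one group also overexpressed EWS-FLI1, from 2 µg of plasmid for 48 h, and the other received an empty vector instead. The labels give neither the vector of ARID1A nor whether the knockout line is a single clone.

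Most active mammalian promoters fire RNA polymerase II in both directions. The upstream RNA is usually short-lived: early polyadenylation signals end it, and the nuclear exosome with its adaptor complexes degrades it. The -DT genes are those upstream RNAs, or longer spliced forms of them, that are stable enough to be annotated, and polyA selection recovers only their polyadenylated forms.

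All 209 partner genes, found by removing -DT from the name, were in the table, and every member lay on the strand opposite to its partner. The annotated 5′ ends of member and partner lay within 200 bases of each other for 115 pairs, within 1000 bases for 192 and over 5000 bases apart for 7, with a median distance of 152 bases. The members' exons summed to a median of 3040 bases (358 to 35210). The exons of 112 members overlapped no other gene, and those of 97 did, 56 of them with their own partner. Counting ignored strand and left out fragments that fell on several genes. For those 97, fragments on shared exon bases thus counted for neither gene. For all 209 members the strand of a fragment is not known, and overlap with introns of other genes was not checked.

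The shared promoters were read from RefSeq on GRCh38.p14, as 250 bases before and 50 bases after a gene's start. They matched 174 partners and 164 members. The GC box GGGCGG, on either strand, stood in 75.3% of the partner promoters and 75.6% of the member promoters, against 44.6% of all 27305 promoters. The ETS-factor core CCGGAAG stood in 32.2% and 23.8%, against 10.7%. TATAAA was in 6.32% and 4.27%, against 12.0%, and CCAAT in 39.1% and 31.7%, against 35.7%. The doubled letters GGAAGGAA, the unit of the repeats that EWS-FLI1 is known to bind, were in 2.87% and 6.10%, against 3.58%. The NRF1 site was in 2.30% and 3.05%, against 1.36%. Each was sought on both strands, matches could overlap, and the ETS core shares letters with the doubled GGAA. The median number of CpG in 300 bases was 32 in both sets and 14 in all promoters. These windows were therefore richer in CpG and GC boxes than promoters at large.

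The lines that follow give the 250 bases before the RefSeq start of 5 partners, 5′ to 3′ on the partner's strand, because the results turn on their transcripts. KDM7A-DT changed with EWS-FLI1, BAIAP2-DT rose with ΔIDR1b, and ZNF778-DT, INSIG1-DT and ATF6-DT fell with WT. Capitals mark a GC box, ETS core, CCAAT box or TATA box on either strand. The doubled GGAA letters and the NRF1 site occurred in no window of the 5. The positions are chr7:140176984-140177233 (minus strand) for KDM7A, chr17:81034901-81035150 (plus) for BAIAP2, chr16:89217453-89217702 (plus) for ZNF778, chr7:155297628-155297877 (plus) for INSIG1 and chr1:161766070-161766319 (plus) for ATF6.
KDM7A: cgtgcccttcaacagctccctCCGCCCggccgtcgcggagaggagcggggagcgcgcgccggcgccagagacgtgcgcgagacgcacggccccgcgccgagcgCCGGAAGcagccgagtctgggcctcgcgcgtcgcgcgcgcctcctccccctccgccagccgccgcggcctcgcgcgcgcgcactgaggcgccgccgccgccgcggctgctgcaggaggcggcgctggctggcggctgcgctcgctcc
BAIAP2: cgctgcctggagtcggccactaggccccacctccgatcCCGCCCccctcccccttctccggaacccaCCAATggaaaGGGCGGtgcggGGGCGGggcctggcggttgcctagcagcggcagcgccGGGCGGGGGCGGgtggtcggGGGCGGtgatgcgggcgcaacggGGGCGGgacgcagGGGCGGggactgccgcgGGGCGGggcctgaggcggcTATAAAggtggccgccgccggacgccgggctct
ZNF778: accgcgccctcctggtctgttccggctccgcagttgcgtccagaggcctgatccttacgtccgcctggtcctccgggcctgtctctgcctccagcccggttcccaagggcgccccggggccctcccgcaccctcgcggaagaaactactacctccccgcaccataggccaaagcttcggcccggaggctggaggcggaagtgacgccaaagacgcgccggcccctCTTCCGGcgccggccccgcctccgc
INSIG1: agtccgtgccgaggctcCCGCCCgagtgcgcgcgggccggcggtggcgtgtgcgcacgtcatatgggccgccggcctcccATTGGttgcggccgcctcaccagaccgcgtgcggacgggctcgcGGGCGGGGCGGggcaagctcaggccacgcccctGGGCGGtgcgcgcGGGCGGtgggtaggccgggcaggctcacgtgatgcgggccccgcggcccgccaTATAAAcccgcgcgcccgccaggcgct
ATF6: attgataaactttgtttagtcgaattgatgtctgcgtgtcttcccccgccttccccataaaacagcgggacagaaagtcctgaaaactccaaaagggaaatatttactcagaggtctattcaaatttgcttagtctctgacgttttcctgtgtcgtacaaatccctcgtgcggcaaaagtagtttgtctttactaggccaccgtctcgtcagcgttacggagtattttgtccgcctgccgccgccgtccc
The windows of KDM7A and ZNF778 each held 1 ETS core. That of BAIAP2 held 9 GC boxes and that of INSIG1 5, and each of the last pair also held 1 CCAAT box and 1 TATA box. The ATF6 window held none of the letters searched and had 47.2% G or C, against 81.6% in the KDM7A window. The annotated start of the divergent transcript lay upstream of the RefSeq start by 201 bases for KDM7A, 270 for BAIAP2, 50 for ZNF778, 337 for INSIG1 and 93 for ATF6.

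The libraries held 11702251 to 14445379 counts. The targeted gene was checked first: ARID1A stood at 147 to 165 CPM in the 4 libraries without introduced ARID1A, at 1840 to 2290 CPM with WT and at 2610 to 2880 CPM with ΔIDR1b, so the labels held, and the knockout line still gave counts for ARID1A. FLI1 was at most 0.146 CPM in every library with the empty vector. With EWS-FLI1 it was 1830 and 1688 CPM without ARID1A, 3675 and 3462 CPM with WT and 1888 and 1906 CPM with ΔIDR1b, so WT had the highest level of the fusion. The part of that level in the comparisons of WT under EWS-FLI1, and in the interactions, was not tested. Of 6 markers of the line, NEFL, VIM, KRT8, KRT18 and PAX2 were present, and NEFM had 2 counts over all libraries. The 6 markers of other cell types (PTPRC, PECAM1, ALB, MYH7, CD3E and HBB) reached at most 1.12 CPM, that value being HBB in a library of no ARID1A with EWS-FLI1. Replicates of each group differed beyond sampling noise (chi-square per degree of freedom from 3.13 to 13.6). The labels do not say that repeats came from separate cultures, so p-values measure the spread between these libraries, which may be technical. Gene positions are those of the deposited table (GRCh38.p13), and levels below are CPM after TMM scaling (trimmed mean of M-values) of the library sizes.

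The members were low in level. Their median over the 12 libraries was 3.05 CPM, against 47.9 CPM for their partners, and 144 of 209 lay under 5 CPM. Per kilobase of exon the medians were 1.27 CPM for members and 7.40 CPM for partners. The length counts every annotated exon base of a gene, bases shared with other genes included, so values per kilobase depend on the annotation. The median member stood at 15.2% of its partner per kilobase, 82 members under 10%, and 22 members above their partner. Across the 209 pairs the log levels of member and partner had a Pearson's r of 0.03, a description in which both share the libraries.

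The highest were NIPBL-DT, GARS1-DT and MVP-DT, with means of 38.1, 35.5 and 34.9 CPM. NIPBL-DT faces the gene of the cohesin loader NIPBL and per kilobase reached 69.8% of it. GARS1-DT, from the glycyl-tRNA synthetase gene, has exons of 30756 bases and stood at 6.58% of GARS1 per kilobase. Per kilobase TBC1D22A-DT stood at 11.2 CPM and TRIM8-DT, from a ubiquitin ligase gene, at 9.30 CPM, both among the highest. TBC1D22A-DT was 253% of its partner per kilobase and TRIM8-DT 61.8% of TRIM8.

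Summed over all 209, the divergent transcripts were highest without ARID1A, lowest with WT and in between with ΔIDR1b. The sum was 1299 and 1338 CPM in the empty-vector libraries of no ARID1A and 1409 and 1356 CPM in those with EWS-FLI1. WT brought it to 959.8 and 920.4 CPM (empty vector) and to 949.4 and 938.8 CPM (EWS-FLI1). In ΔIDR1b it was 1103 and 1036 CPM (empty vector) and 1166 and 1132 CPM (EWS-FLI1). The 4 libraries of each state did not overlap with those of another state. The partners' sum did not follow this order, with means of 17920 and 17820 CPM without ARID1A, 18080 and 17820 CPM with WT, and 16240 and 16280 CPM with ΔIDR1b (empty vector and EWS-FLI1 in turn). The lower value with ΔIDR1b depends on the scaling, whose TMM factors were 0.932 to 0.969 with WT and 1.05 to 1.08 with ΔIDR1b. Before scaling the partners held 1.74 to 1.77% of the counts without ARID1A, 1.68 to 1.74% with WT and 1.71 to 1.74% with ΔIDR1b. The spacing of the members' sums depends on the scaling too. Before it the members held 0.1262 to 0.1391% of the counts without ARID1A, 0.0883 to 0.0909% with WT and 0.110 to 0.1253% with ΔIDR1b. The order was the same, with ΔIDR1b nearer to no ARID1A than to WT. In a bulk sample, fewer cells that make an RNA and less of it per cell cannot be told apart.

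**Figure D1:**
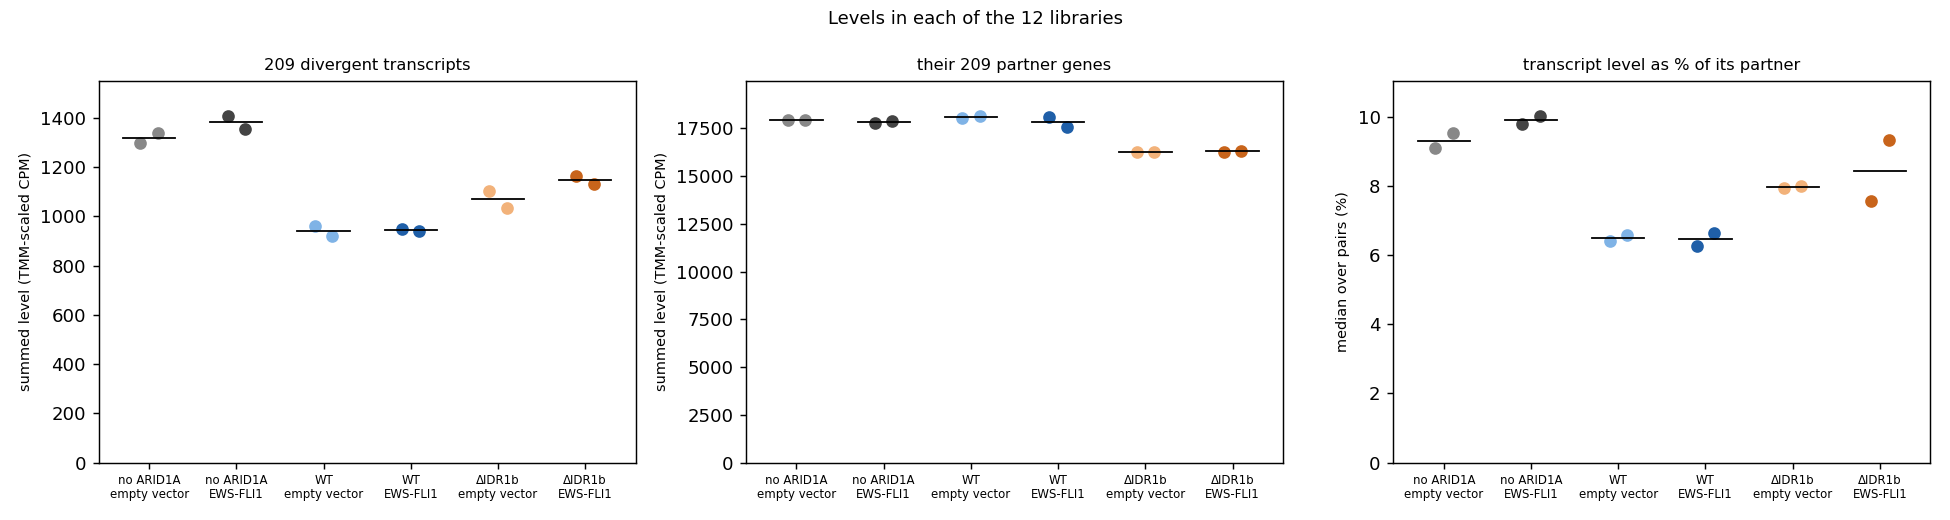
Each point is a library, the bars are means of 2 libraries, and levels are TMM-scaled CPM (left and middle) or the median over 209 pairs of the transcript as a percentage of its partner, 0.5 CPM added to both (right). The summed divergent transcripts lay between 1299 and 1409 CPM without ARID1A, 920.4 and 959.8 CPM with WT and 1036 and 1166 CPM with ΔIDR1b.

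The order did not rest on the strongest transcripts. Without MVP-DT the sums were 1243 ± 21.2 and 1303 ± 38.2 CPM (SD, n = 2, empty vector and EWS-FLI1) for no ARID1A, 914.7 ± 30.4 and 925.7 ± 5.51 CPM for WT, and 1061 ± 46.7 and 1142 ± 25.5 CPM for ΔIDR1b. Without the 10 highest members, which held 23.7 to 27.6% of the sum, they were 978.7 ± 16.9 and 1030 ± 16.3, 683.6 ± 24.8 and 693.4 ± 6.86, and 794.8 ± 31.8 and 869.5 ± 8.56 CPM. With 0.5 CPM added to both, the median transcript stood at 9.31% ± 0.302 and 9.91% ± 0.175 of its partner without ARID1A, at 6.49% ± 0.12 and 6.45% ± 0.248 with WT, and at 7.97% ± 0.0368 and 8.44% ± 1.25 with ΔIDR1b (SD, n = 2 each). The wide spread in the last group came from libraries at 7.55% and 9.32%.

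The comparison of WT with no ARID1A asked what introduced ARID1A did to these transcripts. Nearly all calls were falls. With the empty vector 30 of the 209 members were lower and 0 higher at an adjusted p under 0.05 (edgeR quasi-likelihood test, Benjamini-Hochberg over 20377 genes), against 5.19% of all genes lower and 6.5% higher. DESeq2 called 26 lower and 0 higher, and 67 members had an unadjusted p under 0.05 in edgeR. With EWS-FLI1 43 were lower and 2 higher, against 8.36% and 9.72% of all genes. The median log2 fold change of the members was -0.52 and -0.55, with 181 and 182 of 209 below 0, beside -0.01 and -0.02 for all genes. In every library WT lay below no ARID1A for 121 members under the empty vector and 125 under EWS-FLI1, against 28.6% and 28.2% of all genes, and above it for 10 and 6, against 27.7% and 26.6%. The partners' medians had the other sign, 0.06 and 0.10, with 23 and 32 called higher and 11 and 13 lower.

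The size of the fall was stable over single libraries, while the number of calls was not. Without repeat 1 or repeat 2 of no ARID1A with the empty vector, the 30 calls became 13 and 10, and without repeat 1 or repeat 2 of WT they became 6 and 11, all of them falls, in fits that assume the lone library of a group varies like the others. With EWS-FLI1 the 45 calls became 28 without either repeat of no ARID1A. Over all 12 libraries left out in turn, the median stayed between -0.58 and -0.44 with the empty vector and between -0.59 and -0.51 with EWS-FLI1.

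The comparisons with each vector share no library, and 19 members (9.09%) were called lower in both while 0 were called higher in both or in opposite directions. Of all genes, 3.52% were called lower in both and 4.84% higher. Signs were negative in both for 162 members (77.5%), against 38.9% of all genes. The 19 were the divergent transcripts of ADGRB3, ANKHD1, ATF6, BARX1, GARS1, GOT1, INSIG1, KCTD13, LARP4B, MPC1, MVP, PRKACB, RFX3, RNF139, TMCC1, TMED2, WASL, ZFAND2A and ZNF778. Their partners have varied roles, among them an endoplasmic-reticulum stress sensor (ATF6), the catalytic subunit of protein kinase A (PRKACB), a cilia-gene regulator (RFX3) and an actin nucleation factor (WASL).

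**Figure D2:**
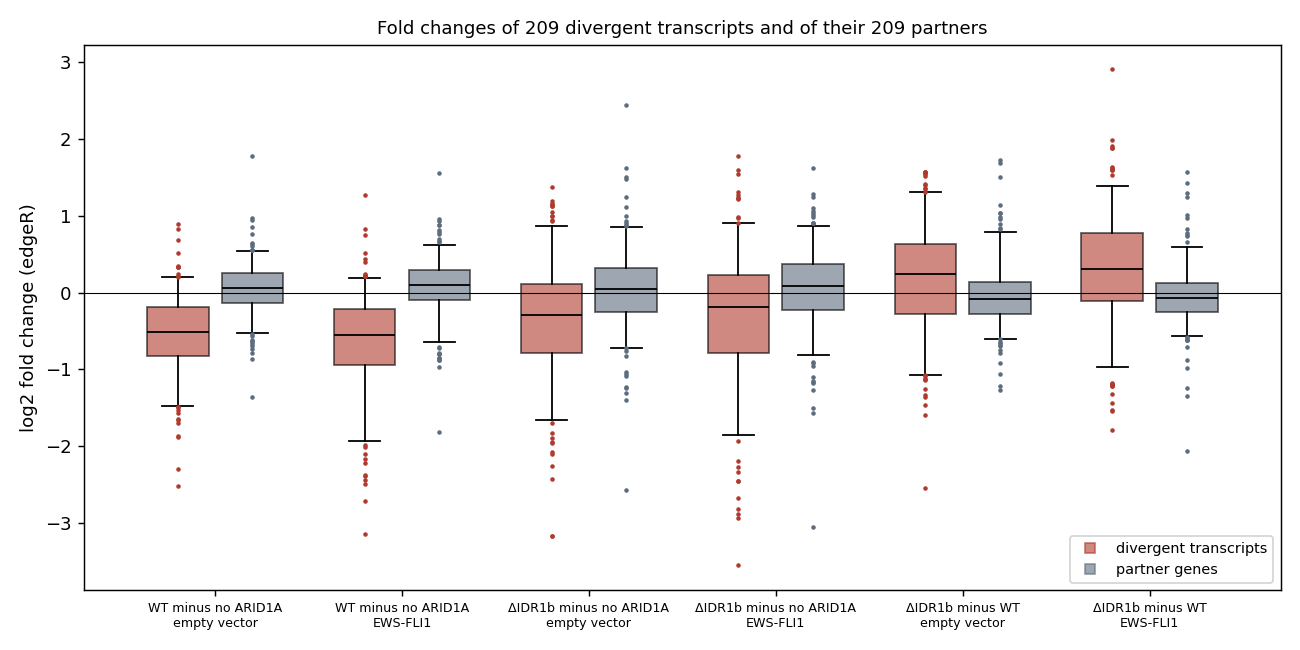
Boxes give the quartiles and median of the edgeR log2 fold changes of the 209 divergent transcripts and their 209 partners in the 6 comparisons between ARID1A states, whiskers the 5th to 95th percentiles and points the members beyond them. The transcripts' medians were -0.52 and -0.55 for WT, -0.30 and -0.19 for ΔIDR1b against no ARID1A, and 0.24 and 0.30 for ΔIDR1b against WT, while the partners' medians stayed between -0.08 and 0.10.

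Genes of low level had negative medians with WT in general, and those of the members were further below 0. Among genes with a mean of 1 to 2 CPM the median with the empty vector was -0.61 for 68 members and -0.29 for 2108 other genes. At 2 to 5 CPM it was -0.53 for 76 members and -0.22 for 2153 other genes, and at 5 to 50 CPM -0.46 for 65 members and 0.03 for 7257 other genes. With EWS-FLI1 the members' medians at these levels were -0.77, -0.47 and -0.49, and those of the other genes -0.28, -0.22 and 0.03. No test of the difference was made. Antisense genes named -AS gave like values, with 69 of 522 lower and 3 higher with the empty vector, 122 lower and 5 higher with EWS-FLI1, and medians of -0.40 and -0.48. The 191 intergenic LINC genes had medians of -0.36 and -0.30. The fall with WT was therefore not limited to divergent transcripts.

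The members whose exons overlap no other gene gave like values. Of these 112, 19 were lower and 0 higher with the empty vector and 24 lower and 1 higher with EWS-FLI1, with medians of -0.56 and -0.62. Averaged over both vectors, the median was -0.58 for them and -0.47 for the 97 with overlap. It was -0.50 for the 115 pairs with 5′ ends within 200 bases and -0.53 for the other 94. Members with exons under 2000 bases had a median of -0.64 (68 members) and longer ones -0.47 (141 members).

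RNF139-DT, on chromosome 8, fell with both forms of ARID1A. Its partner encodes an endoplasmic-reticulum ubiquitin ligase. The transcript stood at 20.1, 21.3, 21.3 and 20.9 CPM in the 4 libraries without ARID1A (empty vector first, EWS-FLI1 second, here and below), at 6.47, 6.80, 7.30 and 6.82 CPM with WT, and at 3.80, 3.86, 4.46 and 3.89 CPM with ΔIDR1b. The 3 states did not overlap, and libraries of a state lay close together with either vector. The fall with WT was -1.64 on the log2 scale with the empty vector (SE 0.20, adjusted p = 4.48e-07, edgeR quasi-likelihood test) and -1.58 with EWS-FLI1 (SE 0.20, adjusted p = 4.68e-07). RNF139 itself stood at 29.4 to 33.1 CPM without ARID1A and 39.2 to 47.2 CPM with WT, a rise of 0.47 with the empty vector (SE 0.14, adjusted p = 0.0217), while the rise of 0.34 with EWS-FLI1 was not called (adjusted p = 0.0788). As a share of its partner the transcript went from between 60.7% and 72.5% to between 13.7% and 17.7%.

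MVP-DT (chr16:29808636-29821252, minus strand) faces the gene of the major vault protein and had the widest range in CPM of the members named here. It stood at 71.0, 79.9, 78.6 and 79.5 CPM without ARID1A, at 23.7, 27.2, 19.8 and 17.0 CPM with WT, and at 8.63, 8.15, 5.88 and 7.65 CPM with ΔIDR1b. The states did not overlap. The change with WT was -1.57 with the empty vector (SE 0.14, adjusted p = 7.72e-10, edgeR) and -2.10 with EWS-FLI1 (SE 0.14, adjusted p = 1.04e-12), and with ΔIDR1b it was -3.17 and -3.55 (SE 0.16 each). MVP kept between 14.9 and 20.4 CPM in all 12 libraries and was called in none of these comparisons.

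A limit applies to MVP-DT: 62.1% of its exon bases overlap exons of MAZ, PAGR1, PRRT2 and unnamed genes, and its annotated start lies inside MVP. PRRT2, a neighbour whose exons it shares, also fell, from a median of 26.3 CPM over the 4 libraries without ARID1A to between 12.0 and 15.2 CPM with WT and between 6.72 and 12.4 CPM with ΔIDR1b. Its changes were -0.94 and -1.11 with WT (adjusted p = 2.48e-04 and 1.96e-05, edgeR) and -1.24 and -1.77 with ΔIDR1b. MAZ, a zinc finger factor gene of much higher level, was at 214 to 260 CPM without ARID1A, 176 to 233 CPM with WT and 147 to 181 CPM with ΔIDR1b. It was not called with WT (-0.32 and -0.05, adjusted p = 0.06 and 0.79, edgeR) and fell with ΔIDR1b (-0.50 and -0.49, adjusted p = 8.63e-04 and 8.86e-04). PAGR1 was not called in any of the 6 comparisons, and its largest difference was 0.22. The part of these neighbours in the counts of MVP-DT was not tested.

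ATF6-DT (chr1:161749452-161766227, minus strand) stood at 4.01, 3.29, 5.54 and 3.46 CPM without ARID1A, at 1.26, 1.34, 0.828 and 0.758 CPM with WT, and at 0.512, 1.00, 0.495 and 0.765 CPM with ΔIDR1b. The levels without ARID1A lay above all others, while WT and ΔIDR1b overlapped. The change with WT was -1.48 with the empty vector (SE 0.46, adjusted p = 0.0312, edgeR) and -2.49 with EWS-FLI1 (SE 0.49, adjusted p = 4.06e-04). ATF6 was not called with WT (0.20 and 0.28) and rose with ΔIDR1b (0.34 and 0.50, adjusted p = 0.0204 and 8.44e-04). DUSP12, a phosphatase gene that overlaps 26.0% of the transcript's exon bases, fell from between 44.3 and 54.1 CPM to between 26.3 and 33.7 CPM with WT and 16.5 and 21.8 CPM with ΔIDR1b. Its part in the result was not tested. ATF6-DT had a mean under 1 CPM over the libraries with WT or ΔIDR1b. So did POU2F1-DT, MPC1-DT, BTG1-DT, KDM2B-DT, IBA57-DT and ADM-DT, given below. These members met the level limit only through the libraries without ARID1A, so the choice of members favours their falls.

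POU2F1-DT (chr1:167219822-167220588, minus strand), from the gene of the octamer-binding factor POU2F1, had the largest fall with WT and the empty vector. It, too, met the level limit only through the libraries without ARID1A. It stood at 3.35, 2.69, 2.56 and 3.63 CPM without ARID1A, 0.670, 0.373, 1.13 and 1.21 CPM with WT, and 0.585, 1.5, 0.637 and 0.973 CPM with ΔIDR1b. Its log2 fold change was -2.51 (SE 0.57, adjusted p = 0.00327, edgeR) on counts of 45 and 36 against 9 and 5. The call was lost without repeat 2 of WT (-2.15, adjusted p = 0.0541). POU2F1 rose in the same comparison by 0.47 (adjusted p = 0.0113). MPC1-DT, from a subunit gene of the mitochondrial pyruvate carrier, and ACAD9-DT, from an acyl-CoA dehydrogenase gene, followed by size among called members whose libraries did not overlap. In the libraries compared both stood at or under 2.38 CPM, and both calls were lost without either repeat of either group compared.

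With EWS-FLI1 the largest falls with WT included those of BTG1-DT and KDM2B-DT, again on few counts. BTG1-DT had 28 and 36 counts without ARID1A and 7 and 1 with WT, so its fold is poorly determined. KDM2B-DT was at 1.88 and 3.11 CPM without ARID1A and at 0.150 and 0.758 CPM with WT, 42.6% of its exon bases lie on KDM2B, and its call was lost without repeat 2 of no ARID1A (adjusted p = 0.152) or repeat 1 of WT (adjusted p = 0.128). The 2 members called higher were EIF3J-DT (0.83, SE 0.26, adjusted p = 0.0238, edgeR) and BAIAP2-DT (0.75, SE 0.22, adjusted p = 0.0139). The partners of both, an initiation factor subunit and an actin-membrane adaptor, were also higher there (0.43 and 0.62). A fit to the 4 libraries of the comparison alone ended both calls (adjusted p = 0.056 and 0.0626), as did fits without either repeat of no ARID1A or repeat 2 of WT.

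GARS1-DT, among the highest members, fell by less. It stood at 41.9, 47.6, 51.1 and 52.5 CPM without ARID1A, at 27.3, 32.2, 30.9 and 32.3 CPM with WT, and at 27.1, 27.4, 28.7 and 28.9 CPM with ΔIDR1b. The change with WT was -0.59 and -0.71 (SE 0.13 each, adjusted p = 0.00327 and 2.24e-04, edgeR), and that with ΔIDR1b -0.71 and -0.85 (SE 0.13 each). Its annotated start lies 14753 bases inside GARS1 in the deposited table and 551 bases inside it from the RefSeq start. NIPBL-DT was at 41.2 to 52.3 CPM without ARID1A, 32.7 to 42.4 CPM with WT and 27.5 to 37.8 CPM with ΔIDR1b. It was called with ΔIDR1b (-0.69 and -0.52, adjusted p = 6.21e-04 and 0.00729) and not with WT (-0.25 and -0.32, adjusted p = 0.305 and 0.144).

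ΔIDR1b against no ARID1A gave changes in both directions. For the empty vector 36 members were lower and 10 higher, against 16.8% and 16.4% of all genes. With EWS-FLI1 42 were lower and 15 higher, against 17.9% and 18.1%. The share called lower, 17.2% and 20.1%, was thus near that of all genes, and the share called higher, 4.78% and 7.18%, was below it. The medians were -0.30 and -0.19, with 145 and 130 members below 0. Over both vectors 29 members (13.9%) were called lower in both, 6 (2.87%) higher in both and 0 opposite, against 13.3% lower and 12.9% higher of all genes. The comparisons of WT and of ΔIDR1b with no ARID1A share the libraries without ARID1A, so their lists are not set against each other. Some members called with WT and not with ΔIDR1b are named below as a description.

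In the antisense class 117 of 522 were lower and 41 higher with ΔIDR1b under the empty vector, and 153 and 32 under EWS-FLI1, with medians of -0.33 and -0.35. Its difference from the divergent transcripts was not tested. The LINC genes had medians of 0.04 and -0.02. By level, the members' medians at 1 to 2, 2 to 5 and 5 to 50 CPM were -0.45, -0.27 and -0.20 with the empty vector, against -0.11, 0.03 and 0.09 for other genes. With EWS-FLI1 they were -0.25, -0.23 and -0.02, against -0.13, -0.0021 and 0.10. In the highest range with EWS-FLI1, 18 of 65 members (27.7%) were called lower and 9 (13.8%) higher, against 16.8% and 26.5% of other genes. Members of that range thus moved in both directions around a median near 0.

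Among falls with ΔIDR1b were MVP-DT, given above, and RNF139-DT, at -2.43 and -2.34 (SE 0.21 each, adjusted p = 6.18e-11 and 1.06e-10, edgeR). RNF139-DT was also lower in ΔIDR1b than in WT, by -0.79 and -0.76 (adjusted p = 0.00933 and 0.0149). YTHDF3-DT, from the gene of an m6A reader and on chromosome 8, was at 5.46 and 6.48 CPM without ARID1A and at 0.849 and 0.695 CPM with ΔIDR1b, both with EWS-FLI1. Its change was -2.94 (SE 0.50, adjusted p = 2.10e-05). With the empty vector the same transcript was lower to start with, at 2.83 and 2.84 CPM, and at 1.68 and 0.286 CPM with ΔIDR1b. IBA57-DT, from a gene of mitochondrial iron-sulfur cluster assembly, changed by -2.11 and -2.89 (SE 0.59 and 0.63), and IBA57 itself fell (-0.69 and -0.38, adjusted p = 4.11e-04 and 0.0384).

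BAIAP2-DT (chr17:81029130-81034881, minus strand) rose with ΔIDR1b. It stood at 8.85, 10.0, 6.48 and 5.88 CPM without ARID1A, at 9.08, 8.37, 8.88 and 12.0 CPM with WT, and at 23.5, 18.6, 19.0 and 23.5 CPM with ΔIDR1b. Every ΔIDR1b library lay above all 8 others, and no ARID1A and WT overlapped. The rise over no ARID1A was 1.16 with the empty vector (SE 0.20, adjusted p = 2.26e-05, edgeR) and 1.78 with EWS-FLI1 (SE 0.21, adjusted p = 3.62e-08), and over WT it was 1.27 and 1.02 (SE 0.20 each, adjusted p = 1.57e-05 and 3.25e-04). BAIAP2, which encodes an adaptor of the actin cytoskeleton, was at 19.7 to 24.7, 31.2 to 34.5 and 24.1 to 32.3 CPM in the 3 states, so the partner was highest with WT on average while WT and ΔIDR1b overlapped. No exon of BAIAP2-DT overlaps another gene.

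Other rises with ΔIDR1b were smaller in level. MOCS2-DT, from a gene of molybdenum cofactor synthesis, was at 3.05, 3.59, 2.39 and 1.81 CPM without ARID1A, at 1.49, 1.87, 0.979 and 3.18 CPM with WT and at 5.04, 4.93, 6.72 and 6.05 CPM with ΔIDR1b. All 4 ΔIDR1b libraries lay above the rest. Its call against WT with the empty vector (1.57, SE 0.39, adjusted p = 0.00301, edgeR) was lost without repeat 1 of WT (adjusted p = 0.0513). ANKRD42-DT rose by 1.38 with the empty vector (SE 0.35, adjusted p = 0.00257), from 1.71 and 1.94 to 4.68 and 4.86 CPM.

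MAFG-DT, from the gene of a small Maf transcription factor, rose with ΔIDR1b and EWS-FLI1 from 1.88 and 2.25 to 5.24 and 6.81 CPM (1.54, SE 0.42, adjusted p = 0.00373, edgeR). With the empty vector the ΔIDR1b repeats differed, at 7.75 and 2.72 CPM, and without repeat 1 the rise of 1.20 became 0.26 (adjusted p = 0.76). The call was also lost without either repeat of no ARID1A (adjusted p = 0.0737 and 0.111). Its partner MAFG was at 40.6 to 49.7 CPM without ARID1A, 76.2 to 95.7 CPM with WT and 75.5 to 89.4 CPM with ΔIDR1b. The partner thus rose with both forms of ARID1A and the transcript was called with ΔIDR1b alone. The difference between the forms was itself called for the transcript (1.57 and 1.64, adjusted p = 0.00577 and 0.00494), the former lost without repeat 1 of ΔIDR1b (0.63, adjusted p = 0.439).

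**Figure D3:**
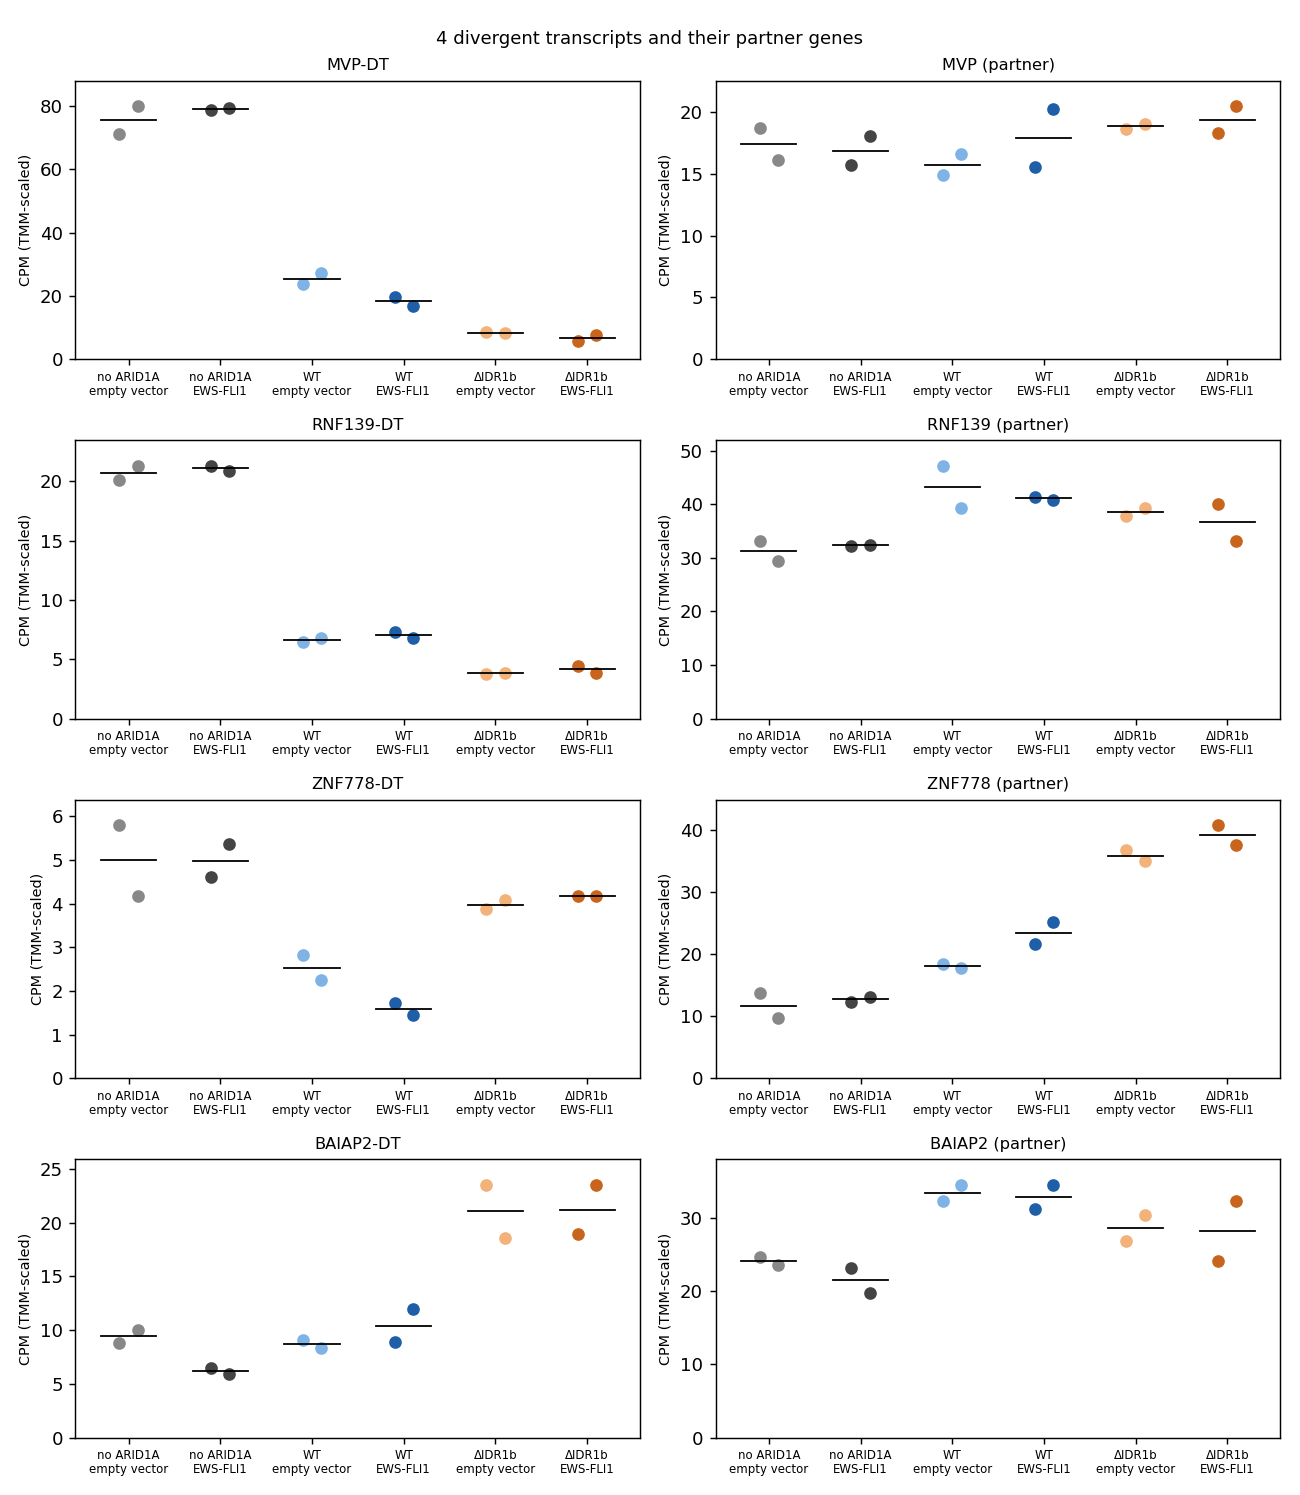
Points are libraries, bars are means of 2 libraries, and each row pairs a divergent transcript (left) with its partner gene (right) in TMM-scaled CPM. MVP-DT falls from at least 71.0 to at most 8.63 CPM between no ARID1A and ΔIDR1b while MVP keeps 14.9 to 20.4 CPM, RNF139-DT falls in the same order, ZNF778-DT is lowest with WT, and BAIAP2-DT is at or above 18.6 CPM in the ΔIDR1b libraries.

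ΔIDR1b against WT compared cells that both overexpress a form of ARID1A, with and without IDR1b. With the empty vector 25 members (12.0%) were higher, near the 11.1% of all genes, and 15 (7.18%) were lower, against 13.4%. With EWS-FLI1 33 (15.8%) were higher and 9 (4.31%) lower, against 8.48% and 10.1%. The medians were 0.24 and 0.30, beside 0.01 for all genes in both. Over both vectors 18 members (8.61%) were called higher in both, 9 (4.31%) lower in both and 0 opposite, against 5.86% higher and 7.74% lower of all genes. Differences were positive in both for 116 members (55.5%), against 40.7% of all genes. Every ΔIDR1b library lay above every WT library for 79 and 81 members (32.0% and 27.9% of all genes) and below for 37 and 31 (32.1% and 26.6%). Partners had medians of the other sign (-0.08 and -0.07, 22 and 17 higher, 35 and 27 lower).

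Other genes of low level were also higher in ΔIDR1b than in WT. For the empty vector their medians were 0.17 at 1 to 2 CPM and 0.21 at 2 to 5 CPM, beside 0.18 and 0.34 for the members. With EWS-FLI1 they were 0.15 and 0.22, beside 0.31 and 0.21, so at 2 to 5 CPM the members did not exceed the other genes there. At 5 to 50 CPM the members' median was 0.20 and 0.37 (empty vector and EWS-FLI1), against 0.04 and 0.06 for the other genes. Antisense genes named -AS had medians of 0.07 and 0.10 and LINC genes of 0.39 and 0.26. The 752 genes of the GENCODE 29 type antisense had medians of the other sign, -0.111 and -0.106. ARID1A itself was counted higher in ΔIDR1b than in WT, at 2610 to 2880 against 1840 to 2290 CPM, so the deletion and the level of the introduced gene cannot be told apart.

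Counts depended on single libraries here too. The 40 calls with the empty vector became 23 without repeat 1 of WT and 25 without either repeat of ΔIDR1b. The 42 with EWS-FLI1 became 25 without repeat 1 of WT, 25 without repeat 1 of ΔIDR1b, and 23 (18 higher, 5 lower) in a fit to the 4 libraries of the comparison alone. The medians stayed positive in each case, from 0.11 to 0.31 for the empty vector and from 0.25 to 0.34 for EWS-FLI1 over the single libraries left out.

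ZNF778-DT (chr16:89215160-89217653, minus strand) was called lower with WT and not with ΔIDR1b. It was named for that pattern, so its difference between ΔIDR1b and WT, which uses the same WT libraries, is a description. It stood at 5.80, 4.19, 4.60 and 5.36 CPM without ARID1A, at 2.83, 2.24, 1.73 and 1.44 CPM with WT and at 3.88, 4.08, 4.18 and 4.17 CPM with ΔIDR1b. WT lay below both other states in every library, and ΔIDR1b lay just below no ARID1A. The change with WT was -0.98 (SE 0.32, adjusted p = 0.0443, edgeR) and -1.65 (SE 0.35, adjusted p = 9.06e-04). ΔIDR1b exceeded WT by 1.39 with EWS-FLI1 (SE 0.35, adjusted p = 0.00464), and the 0.65 with the empty vector was not called (adjusted p = 0.153). ZNF778, a KRAB zinc finger gene, rose in order from 9.65 to 13.8 CPM without ARID1A, to 17.8 to 25.2 CPM with WT and 35.0 to 40.8 CPM with ΔIDR1b. Its changes with ΔIDR1b were 1.61 and 1.62 (SE 0.17 each, adjusted p = 2.67e-09 and 2.11e-09).

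KCTD13-DT, from the gene of a CUL3 ubiquitin-ligase adaptor (chr16:29926836-29928933, plus strand), had the same order at a smaller size. It was named by the same rule, so the same limit applies. It stood at 10.5, 10.7, 10.1 and 8.64 CPM without ARID1A, 6.03, 5.98, 5.42 and 5.31 CPM with WT and 9.14, 8.08, 7.50 and 9.24 CPM with ΔIDR1b. WT lay below the rest, whereas ΔIDR1b and no ARID1A overlapped. The change with WT was -0.82 and -0.81 (SE 0.22 and 0.23, adjusted p = 0.0143 and 0.0126, edgeR), and ΔIDR1b exceeded WT by 0.64 with EWS-FLI1 (adjusted p = 0.047) and by 0.52 with the empty vector, not called (adjusted p = 0.0928). KCTD13 was not called in any comparison of states.

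ATP6V0D1-DT, from a gene of the vacuolar proton pump, also rose between WT and ΔIDR1b, from 1.56, 2.32, 0.753 and 2.20 to 4.90, 5.43, 6.44 and 5.28 CPM (1.41 and 1.98, SE 0.38 and 0.39, adjusted p = 0.00554 and 4.12e-04, edgeR). PPP1R3B-DT, from the gene of a glycogen-targeting phosphatase subunit, rose with EWS-FLI1 by 1.88 (adjusted p = 0.00475) and lost the call without repeat 1 of ΔIDR1b (adjusted p = 0.063). RNF32-DT rose with the empty vector by 1.55 (SE 0.39, adjusted p = 0.00385), from 1.26 and 1.05 to 3.51 and 3.29 CPM. MAP2K5-DT, from the MEK5 kinase gene, rose with EWS-FLI1 by 1.91 on levels of 0.226 and 0.606 CPM in WT, and its call was lost without repeat 1 of either group (adjusted p = 0.219 and 0.486) and in a fit to the 4 libraries of the comparison alone (0.113).

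Members lower in ΔIDR1b than in WT included RSL1D1-DT and KPNB1-DT, from genes of a nucleolar ribosome-biogenesis factor and of importin beta. RSL1D1-DT went from 4.17, 5.30, 4.74 and 3.79 CPM with WT to 1.75, 2.57, 1.49 and 0.973 CPM, a change of -1.13 and -1.79 (SE 0.34 and 0.37, adjusted p = 0.0136 and 7.25e-04, edgeR). KPNB1-DT, 32.2% of whose exon bases lie on NPEPPS, went from 6.32, 4.71, 6.62 and 3.79 CPM to 2.19, 2.86, 1.56 and 2.02 CPM (-1.12 and -1.54). NPEPPS was also lower (-0.28 and -0.27), called with the empty vector alone (adjusted p = 0.0481 and 0.0679), and its part in the counts of KPNB1-DT was not tested. Both partners fell as well, RSL1D1 by -0.55 and -0.30 and KPNB1 by -0.29 and -0.26, each called. ST3GAL1-DT, on chromosome 8, was at 2.69 to 3.09 CPM with WT and 0.858 to 1.42 CPM with ΔIDR1b, while its partner, a sialyltransferase gene, was not called (0.24 and 0.26). EOGT-DT, from the gene of an O-GlcNAc transferase for EGF domains, changed by -1.46 with the empty vector, a call lost without repeat 1 of ΔIDR1b (-0.85, adjusted p = 0.201) or repeat 2 of WT (adjusted p = 0.0543).

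Member and partner were then compared as a ratio. For every head-to-head pair of the table, log2((transcript CPM + 0.5)/(partner CPM + 0.5)) was tested in limma over 2923 pairs, averaged over both vectors. With WT the ratio fell in 95 of the 209 member pairs and rose in 0, with a median of -0.51, against 19.4% of all pairs lower and 15.3% higher. With ΔIDR1b against no ARID1A it fell in 73 and rose in 33 (25.4% and 23.6% of all pairs), median -0.25. With ΔIDR1b against WT it rose in 59 and fell in 19 (20.4% and 17.0%), median 0.29. The order within the other 2714 pairs is arbitrary, so only the share called compares: it was 33.8%, 48.9% and 37.4% in them, and 45.5%, 50.7% and 37.3% in the member pairs. Without exon overlap, 58 of 112 member pairs fell and 0 rose with WT.

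**Figure D4:**
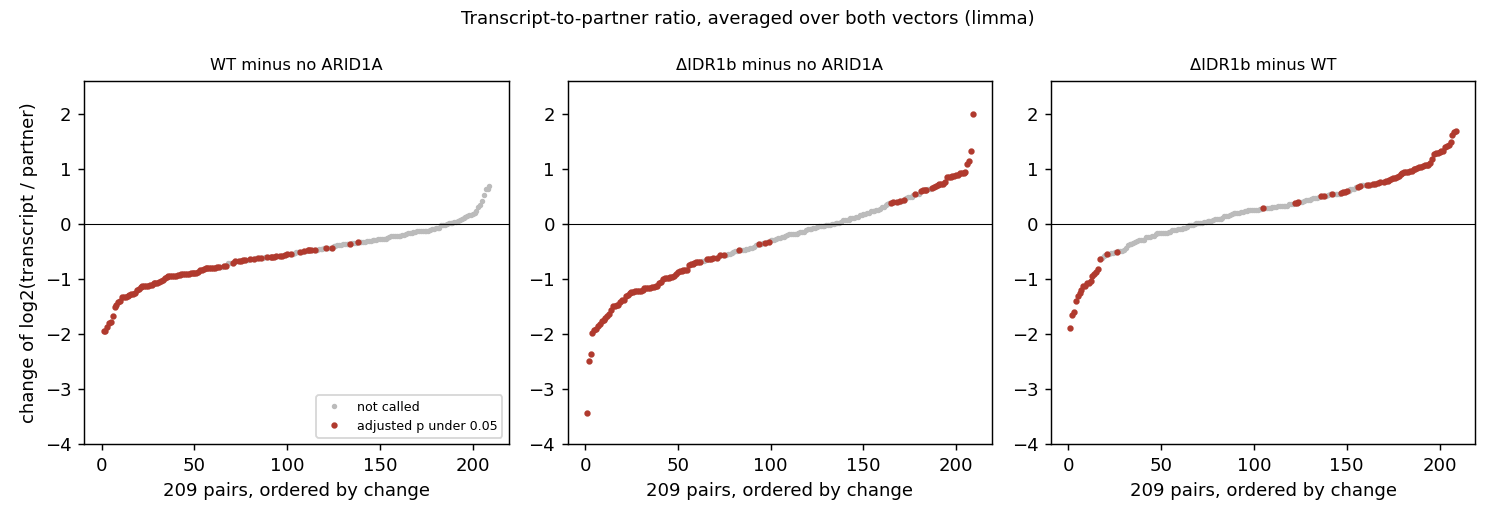
Each point is 1 of 209 pairs, ordered by its change in log2(transcript/partner) averaged over both vectors, with pairs at an adjusted p under 0.05 (limma) in red. With WT 95 pairs fell and 0 rose, with ΔIDR1b against no ARID1A 73 fell and 33 rose, and with ΔIDR1b against WT 19 fell and 59 rose.

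Measured changes of members and partners were little related. Error in the changes of low members, with 2 libraries a group, draws such a correlation towards 0, so a relation could have been missed. Across the 209 pairs, Pearson's r between the log2 fold changes of member and partner lay between -0.07 and 0.17 in all 13 contrasts, a description over pairs that share the libraries. For WT it was 0.03 (empty vector) and 0.17 (EWS-FLI1), beside -0.01 and 0.005 in 2712 other head-to-head pairs. Of the 30 members lower with WT and the empty vector, 24 had a partner that was not called, 5 a partner called higher and 1 a partner called lower, while 23 of all 209 partners were called higher and 11 lower. With EWS-FLI1 33 of 43 had an uncalled partner, 3 a higher and 7 a lower one, beside 32 and 13 of all 209 partners, and both members called higher had a higher partner.

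The largest ratio changes came from either side of the pair. For RNF139-DT and MVP-DT the transcript moved, and the ratio changed by -1.94 (SE 0.17) with WT for the former and by -3.43 (SE 0.14) with ΔIDR1b for the latter (adjusted p = 4.10e-13 and 1.49e-26, limma). For ADM-DT the partner moved by more. ADM, which encodes the peptide hormone adrenomedullin, was at 354 to 392 CPM without ARID1A, 101 to 154 CPM with WT and 31.4 to 64.0 CPM with ΔIDR1b. Its divergent transcript was also lower with both forms, at 1.56 to 3.02, 0.452 to 0.893 and 0.715 to 1.54 CPM in the same order. On these low levels it was not called with ΔIDR1b (-0.92 and -1.26, adjusted p = 0.203 and 0.067, edgeR). The ratio of the pair rose by 2.00 with ΔIDR1b (SE 0.30, adjusted p = 2.18e-07, limma). OSER1-DT kept 3.14 to 5.42 CPM in all 12 libraries as OSER1 went from 99.7 to 107 CPM without ARID1A to 40.7 to 46.9 CPM with ΔIDR1b (ratio 1.15, SE 0.23, adjusted p = 3.18e-05, limma).

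INSIG1-DT (chr7:155295918-155297541, minus strand) has as partner a sterol-regulated brake on cholesterol synthesis. The transcript stood at 7.21, 4.41, 5.29 and 5.18 CPM without ARID1A, at 2.01, 2.99, 1.81 and 2.05 CPM with WT and at 2.92, 3.43, 3.47 and 5.84 CPM with ΔIDR1b. WT lay below no ARID1A throughout. INSIG1 was at 173 to 186, 144 to 161 and 70.6 to 86.3 CPM, falling at both steps with no overlap. The transcript's changes with WT were -1.22 and -1.44 (SE 0.34 and 0.36, adjusted p = 0.0171 and 0.00446, edgeR), and those of INSIG1 were -0.32 and -0.18, the former called (adjusted p = 0.043 and 0.242). From WT to ΔIDR1b the transcript rose by 1.27 with EWS-FLI1 (SE 0.36, adjusted p = 0.0116) and was not called with the empty vector (0.35, adjusted p = 0.519), whereas INSIG1 fell by -0.92 and -0.98. Between WT and ΔIDR1b the ratio rose by 1.63 (SE 0.23, adjusted p = 1.68e-07, limma).

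TMEM167B-DT was lowest with WT, at 5.35, 5.38, 10.1 and 5.62 CPM without ARID1A, 3.12 to 3.87 CPM with WT and 6.81 to 9.34 CPM with ΔIDR1b. Its partner was highest with WT (138 to 169 CPM) and lowest with ΔIDR1b (81.8 to 107 CPM). The ratio of the pair rose by 1.68 from WT to ΔIDR1b (SE 0.21, adjusted p = 4.55e-09, limma). WDR5B-DT had the largest fall in that ratio (-1.89, SE 0.26, adjusted p = 8.73e-08). It was at 7.50 to 11.1 CPM with WT and 3.54 to 5.34 CPM with ΔIDR1b, while WDR5B, a low-level relative of the histone-methylation cofactor WDR5, was at 1.05 to 2.01 and 2.34 to 4.18 CPM. KPNA1 exons overlap 47.5% of that transcript's exon bases, and KPNA1 was not called between these states (-0.12 and -0.21).

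Few of these transcripts were called for EWS-FLI1 itself, a share near that of all genes. In no ARID1A 0 of 209 members were called, with edgeR and with DESeq2 (0.0442% of all genes were called, and 11 members had an unadjusted p under 0.05). In WT and in ΔIDR1b 1 was called, higher in each (0.221% and 0.172% of all genes were called in either direction), and averaged over the 3 states 2 were, both higher (0.466%). The medians lay between 0.02 and 0.09.

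The member called in WT, ΔIDR1b and the average was KDM7A-DT (chr7:140177184-140179640, plus strand). Its partner encodes a histone demethylase of H3K9 and H3K27. With the empty vector the transcript stood at 4.76 and 5.01 CPM without ARID1A, 3.42 and 2.09 CPM with WT and 3.44 and 3.36 CPM with ΔIDR1b. With EWS-FLI1 it stood at 8.95 and 10.9, 9.79 and 11.4, and 15.3 and 12.5 CPM. The 6 libraries with EWS-FLI1 all lay above the 6 without. The rise was 1.94 in WT (SE 0.26, adjusted p = 2.05e-05, edgeR) and 2.03 in ΔIDR1b (SE 0.25, adjusted p = 4.49e-06), and the 1.02 in no ARID1A was not called (SE 0.25, adjusted p = 0.319). Over the alternatives run, the average rise of 1.66 (SE 0.15, adjusted p = 9.30e-10) stayed between 1.56 and 1.79. In the main fit KDM7A itself was not called for EWS-FLI1 in any ARID1A state or in the average, which was 0.18 (SE 0.08, adjusted p = 0.528, edgeR). The exons of KDM7A-DT overlap no other gene. With the empty vector the transcript was also lower in WT than in no ARID1A (-0.82, adjusted p = 0.0498).

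**Figure D5:**
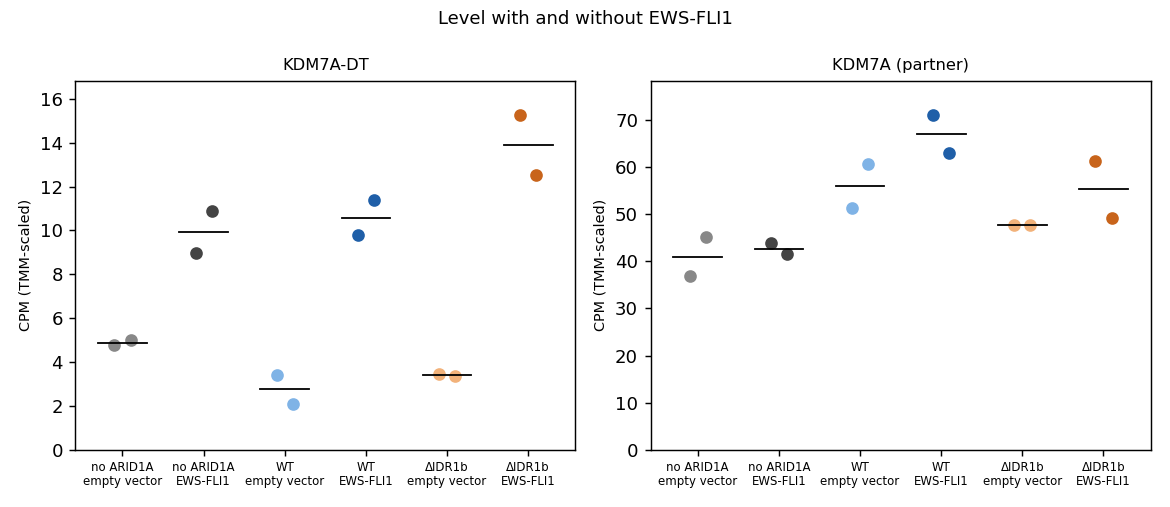
Points are libraries and bars means of 2 libraries, in TMM-scaled CPM, for KDM7A-DT (left) and KDM7A (right). KDM7A-DT is at 2.09 to 5.01 CPM in the empty-vector libraries and at 8.95 to 15.3 CPM in those with EWS-FLI1, whereas KDM7A overlaps between vectors without ARID1A and lies at 51.3 and 60.7 against 71.2 and 63.1 CPM in WT and at 47.7 and 47.8 against 61.4 and 49.3 CPM in ΔIDR1b.

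TBC1D22A-DT was the other member called in the average, at 0.65 (SE 0.16, adjusted p = 0.0451, edgeR). It stood at 10.9 and 6.43 CPM against 14.6 and 15.1 CPM without ARID1A (empty vector against EWS-FLI1), at 6.10 and 5.60 against 9.86 and 8.79 CPM in WT, and at 3.73 and 2.00 against 3.75 and 4.45 CPM in ΔIDR1b. The mean rose in every state, from 8.68 to 14.85 CPM, from 5.85 to 9.33 CPM and from 2.865 to 4.1 CPM in turn. The call was lost without either repeat of WT with the empty vector (adjusted p = 0.0989 and 0.153), without repeat 2 of no ARID1A (0.213) or of ΔIDR1b (0.273) with the empty vector, and without either repeat of no ARID1A (0.098 and 0.12) or of ΔIDR1b (0.0528 and 0.132) with EWS-FLI1. Its levels also followed the ARID1A states, with changes of -1.60 and -1.85 for ΔIDR1b against no ARID1A (SE 0.28 and 0.27, adjusted p = 4.25e-05 and 1.31e-06).

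The effect of EWS-FLI1 on the members was not shown to differ between ARID1A states. Interaction terms called 0 members for WT against no ARID1A (0.0245% of all genes), 0 for ΔIDR1b against no ARID1A (0.0196%) and 0 for ΔIDR1b against WT (0.0%), by edgeR and by DESeq2. An unadjusted p under 0.05 was found for 14, 11 and 7 members.

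Genes of cap binding, of the U1 splicing particle and of termination, cleavage and decay of nuclear RNA were followed in a list of 55, all of them tested. Of these, 6 were higher and 5 lower for WT under the empty vector (6.5% and 5.19% of all genes), then 10 and 10 under EWS-FLI1 (9.72% and 8.36%). ΔIDR1b against no ARID1A gave 12 higher and 16 lower (16.4% and 16.8% of all genes), then 15 and 13 (18.1% and 17.9%). ΔIDR1b against WT gave 4 and 12 (11.1% and 13.4%), then 5 and 10 (8.48% and 10.1%). EWS-FLI1 gave 0 in each state and in the average. The list's medians in the 6 comparisons of states lay between -0.12 and 0.06, near 0 as for all genes. The 13 exosome genes gave 0 higher and 6 lower with ΔIDR1b against no ARID1A under the empty vector, and 1 and 4 under EWS-FLI1, and with WT 0 and 0, then 0 and 2. Fewer genes of any kind were called lower with WT, and no difference was tested.

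Some single genes of that list changed more. ZC3H4, the RNA-binding part of the restrictor complex that stops divergent and other noncoding transcription early, was at 20.3 to 30.1 CPM without ARID1A, 15.9 to 19.8 CPM with WT and 48.2 to 64.1 CPM with ΔIDR1b. Its rise from WT to ΔIDR1b was 1.63 and 1.84 (SE 0.16 each, adjusted p = 5.01e-09 and 5.00e-10, edgeR). PABPN1, of the exosome-targeting complex for polyadenylated nuclear RNA, fell with WT (-0.58 and -1.0) and further with ΔIDR1b (-1.58 and -1.54). PCF11, a termination factor of the cleavage complex, fell by -1.12 and -1.29 with WT and by -1.79 and -1.76 with ΔIDR1b. RBM7, of the nuclear exosome targeting complex, fell by -0.63 and -0.71 and by -1.26 and -1.08, and INTS5, of the Integrator complex, rose by 0.81 and 1.46 and by 2.47 and 2.56. Genes of 1 complex did not share a direction. INTS3 of Integrator fell by -0.56 and -0.855 with WT and by -0.57 and -0.70 with ΔIDR1b. CLP1 of the cleavage group rose by 0.87 and 0.98 and by 1.385 and 1.34. WDR82, listed with ZC3H4, rose by 0.33 and 0.44 with WT. The part of these changes in the levels of the divergent transcripts was not tested.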

How the data were processed

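PolyA RNA of 12 libraries was measured as deposited counts per gene name. Per the file headers, the authors counted read pairs over exons with featureCounts 2.0.1 on GENCODE 41 and GRCh38.p13, without strand. STAR, SAMtools and edgeR are named in the submitters' processing notes. An alignment version was not given in the sources used here.

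Groups came from the sample labels. Counts were fitted over all 12 libraries in edgeR 4.0.16 (filterByExpr, TMM, quasi-likelihood F-test) on R 4.3.3, and 20377 genes were tested, all 209 members among them. P-values were adjusted by Benjamini-Hochberg over all of them, and 0.05 was the limit. Pair ratios were tested in limma 3.58.1 with a pseudocount of 0.5 CPM. DESeq2 1.42.0, other scalings, other filters, a repeat block and each library left out were alternatives. The methods were tested on simulated data. A count of 3 corresponds to 0.208 to 0.256 CPM, which limits precision at low levels by counting error only.

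Named members were the 3 highest in CPM and the 3 highest per kilobase (1 of which is not reported here), the 2 on each side of the level limit, up to 3 called in each direction by size in each contrast and each ratio (for contrasts of ARID1A states, with libraries that did not overlap and a mean of at least 1 CPM over the groups compared), up to 3 called with WT and not with ΔIDR1b, and the partner of each. Called members of the RNA turnover list could also be named. Members and lists were chosen with earlier results of these data known. PRRT2, MAZ, PAGR1, DUSP12, KPNA1 and NPEPPS were named for exons shared with a member.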

Additional observations from a re-analysis of the deposited data

How the results depend on the processing

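With a log2 change of 1 or more in size also required, the calls fell to 15 and 25 for WT against no ARID1A (empty vector and EWS-FLI1), to 26 for ΔIDR1b against WT with EWS-FLI1 and to 1 for the average effect of EWS-FLI1. Fitting only the libraries compared gave 23 calls for ΔIDR1b against WT with EWS-FLI1. The replicate block within each vector gave 39 and 54 calls for WT, 49 and 63 for ΔIDR1b against no ARID1A, and 44 and 48 for ΔIDR1b against WT, and the replicate block over all libraries gave 29, 46, 46, 57, 40 and 41. For the average effect of EWS-FLI1 each of these blocks gave 2 calls. Labels do not say that repeat numbers pair libraries. Repeats of the same number deviated together between groups with the same vector (r from 0.111 to 0.452 over 9573 genes), a hint from the data, and not between groups with different vectors (-0.258 to 0.006). Leaving out single libraries gave 6 to 40 and 28 to 46 calls for WT, 35 to 51 and 38 to 63 for ΔIDR1b against no ARID1A, 23 to 46 and 25 to 42 for ΔIDR1b against WT, 0 to 0, 1 to 2 and 1 to 1 for EWS-FLI1 in no ARID1A, WT and ΔIDR1b, 1 to 2 for their average and 0 to 0 for the interactions. Pair ratios gave 69 to 92, 91 to 107 and 65 to 82 calls. The median interaction of WT with no ARID1A, -0.0637, ranged from -0.1117 to 0.0342 (without repeat 1 of no ARID1A with EWS-FLI1), and that of ΔIDR1b with WT, 0.0682, from -0.0133 (without repeat 1 of WT with the empty vector) to 0.1435. With 2 libraries a group and a median member at 3.05 CPM, changes in most members were not detectable at this depth unless large.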

Other observations

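Noncoding genes outside the named classes had other patterns. Among 156 genes of the GENCODE 29 type sense_intronic, the medians were -0.29 and -0.26 for WT against no ARID1A (empty vector and EWS-FLI1), -0.73 and -0.92 for ΔIDR1b against no ARID1A, and -0.48 and -0.63 for ΔIDR1b against WT. The last values are negative where those of the divergent transcripts were positive. The difference between the classes was not tested. NEAT1, the RNA that builds paraspeckles, was chosen after its values were seen. It stood at 2230 to 2570 CPM without ARID1A, 1000 to 1340 CPM with WT and 768 to 966 CPM with ΔIDR1b.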
